A study of Dugesia japonica with 15 samples.

Results

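The genes described here are those whose level was higher in regenerating trunk fragments than in intact animals under control RNA interference (RNAi), and lower again in fragments under DjTcf4 RNAi, in the planarian Dugesia japonica. There were 32 of them among 12258 gene rows with IDs beginning with DJKW and at least 3 CPM in control fragments (CPM, counts scaled to a library total of 1000000), 0.261% of these, and among 38792 rows in all. They were chosen from the values themselves, by group medians of CPM with 0.5 CPM added. The median of control fragments had to be at least 0.4 on the log2 scale above that of control intact animals, a 1.32-fold rise. The median of DjTcf4 RNAi fragments had to be at least 0.4 below that of control fragments, 24.2% lower, and the median of DjTcf4 RNAi intact animals had to be no more than 0.4 below that of control intact animals. The differences that chose the genes are given as descriptions. Where counts of members called by a model over all genes are given for the same contrasts, they too are descriptions and no test of the members.

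The study measured polyadenylated RNA in 15 libraries, each made from a group of animals. The 4 groups were DjTcf4 RNAi trunk fragments at 5 days post amputation (5 dpa; n = 3, replicates 1, 3 and 4), control RNAi trunk fragments at 5 dpa (n = 4), DjTcf4 RNAi intact animals (n = 4) and control RNAi intact animals (n = 4). All groups received an RNAi treatment, and the labels do not give the sequence used for the control, the number of animals pooled, or whether each replicate was a group of its own. A comparison of fragments with intact animals therefore also compares a trunk with a whole body, and in such bulk RNA fewer cells of a type and less RNA per cell cannot be told apart.

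Planarians regrow missing parts from dividing stem cells, the neoblasts, whose progeny differentiate into the tissues of the new part. Proteins of the TCF family bind DNA and, with β-catenin as a partner, control genes of the Wnt pathway, which in planarians sets the identity of head and tail. Whether DjTcf4 acts in this way was not tested here. A gene switched on after amputation can belong to wound healing, to the dividing cells or to a tissue being rebuilt.

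The deposited table does not pair its row IDs with gene names, so the members are given without roles, and no marker of a cell type was tested. DjTcf4 expression was not analysed here, so the knockdown has no check. IDs are printed for 4 members. DJKW.26661 was named by a rule on level, non-overlapping groups and whole counts, and DJKW.10160, DJKW.4632 and DJKW.20572 were chosen after their values were seen.

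Total counts ranged from 8136366 to 12224216 per library. DjTcf4 RNAi intact replicate 2 stood apart from its group over all tested genes. Its score on the first principal component, which held 51.8% of the variance, was 55.9, among those of the 7 libraries at 5 dpa (15.6 to 56.0) and away from the other 7 intact libraries (-69.2 to -31.4). The choice of the 32 members was the same without this library.

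DJKW.10160 had the strongest rise of the members after amputation. Its level was 10879, 9112 and 8226 CPM in DjTcf4 RNAi fragments, against 13653, 15776, 13139 and 12213 CPM in control fragments. In intact animals it was 518, 891, 683 and 895 CPM with DjTcf4 RNAi, against 713, 804, 636 and 673 CPM in control. Every DjTcf4 RNAi fragment library stood below every control fragment library, and all 7 fragment libraries stood far above all 8 intact ones, while the intact groups overlapped.

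Means of DJKW.10160 were 9406 ± 1351 CPM (SD, n = 3) in DjTcf4 RNAi fragments and 13695 ± 1510 CPM (SD, n = 4) in control fragments. The median of fragments was 11.6 times that of intact animals with DjTcf4 RNAi, against 19.3 times in control. Its log2 difference between DjTcf4 RNAi and control was -0.56 in fragments and 0.18 in intact animals (-0.02 without DjTcf4 RNAi intact replicate 2). The gene was thus still strongly higher after amputation with DjTcf4 RNAi, and the part of the control rise that was missing amounted to 33.7% of it. The missing part is the difference of the 2 fragment medians in CPM, as a share of the control fragment median less the control intact median. The level in DjTcf4 RNAi intact animals does not enter it. This 1 row held 0.823% to 1.09% of all counts in DjTcf4 RNAi fragments, against 1.22% to 1.58% in control fragments. Its counts were fractional in all 15 libraries, and its level is uncertain to the extent that reads were divided with a similar row.

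DJKW.4632 stood at 108, 81.0 and 72.1 CPM in DjTcf4 RNAi fragments, against 137, 158, 129 and 106 CPM in control fragments. Its intact levels were 23.2, 26.2, 25.0 and 23.3 CPM with DjTcf4 RNAi and 23.0, 24.4, 21.7 and 26.5 CPM in control. The fragment groups overlapped by 1 library on each side, since DjTcf4 RNAi replicate 1 lay just above control replicate 4. Means in fragments were 86.9 ± 18.4 CPM (SD, n = 3) with DjTcf4 RNAi and 132 ± 21.4 CPM (SD, n = 4) in control, and the log2 difference of the medians was -0.71. The fragment median was 3.35 times the intact one with DjTcf4 RNAi and 5.61 times in control. By the measure used for DJKW.10160, 47.5% of the control rise was missing.

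DJKW.20572 had 35.4, 35.1 and 38.9 CPM in DjTcf4 RNAi fragments, against 50.2, 41.2, 51.3 and 55.7 CPM in control fragments. The intact libraries held 13.3, 14.0, 12.4 and 12.6 CPM with DjTcf4 RNAi and 11.8, 12.8, 7.43 and 11.8 CPM in control. The fragment groups did not overlap, although the gap to control replicate 2 was narrower than the range of the 3 DjTcf4 RNAi libraries. Means in fragments were 36.4 ± 2.09 CPM (SD, n = 3) with DjTcf4 RNAi and 49.6 ± 6.05 CPM (SD, n = 4) in control. The log2 difference of the medians was -0.51, and by the same measure 39.5% of the control rise was missing. Its counts were fractional in all 15 libraries too.

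DJKW.26661 differed from these in having a small rise that was absent with DjTcf4 RNAi. It stood at 16.8, 12.1 and 13.6 CPM in DjTcf4 RNAi fragments, against 24.0, 20.2, 17.1 and 26.4 CPM in control fragments, and at 18.2, 15.3, 13.4 and 15.5 CPM in DjTcf4 RNAi intact animals, against 15.1, 15.9, 10.3 and 16.7 CPM in control intact animals. Control fragments lay above all other groups except for an overlap of control fragment replicate 3 with DjTcf4 RNAi intact replicate 1. The fragment medians differed by -0.69 on the log2 scale (14.2 ± 2.40 CPM with DjTcf4 RNAi, SD, n = 3, and 21.9 ± 4.15 CPM in control, SD, n = 4), and with DjTcf4 RNAi the fragment median was 0.88 times the intact one.

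**Figure D1:**
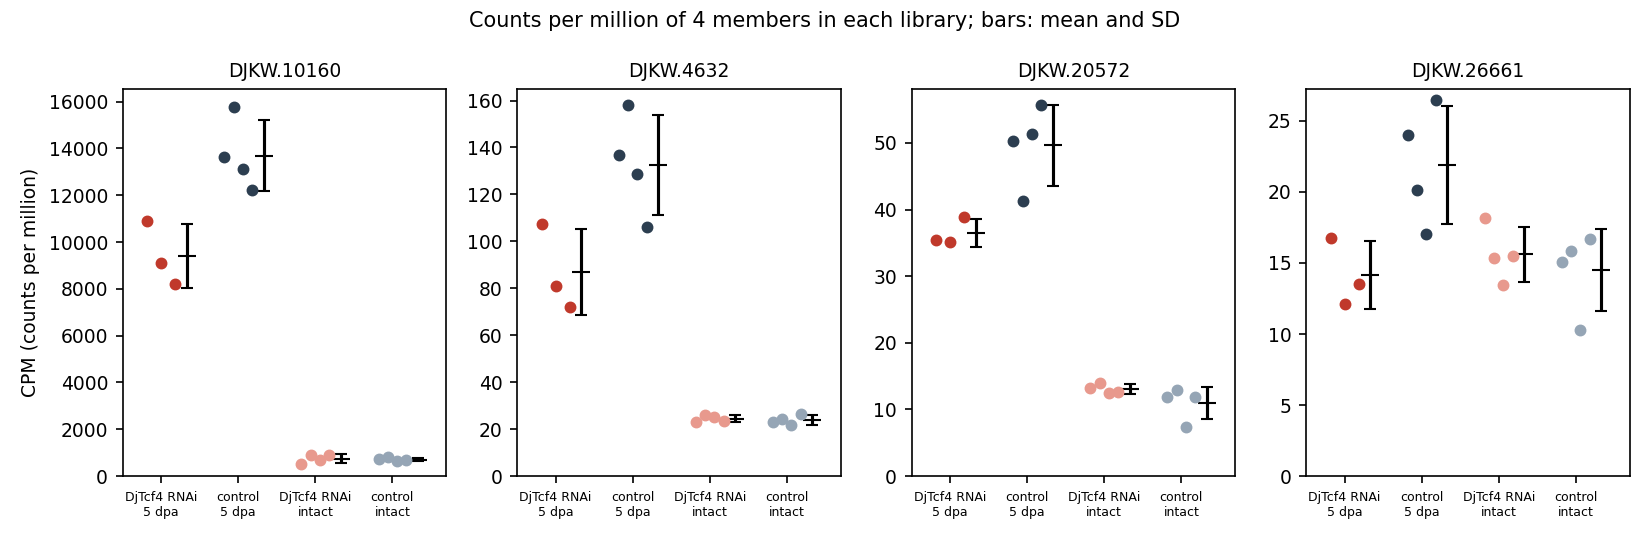
Level in CPM (vertical axes, each from 0) of the 4 members printed by ID, in DjTcf4 RNAi fragments, control fragments, DjTcf4 RNAi intact animals and control intact animals. Points are libraries and bars give the mean and SD. DJKW.10160, DJKW.4632 and DJKW.20572 remained above intact levels with DjTcf4 RNAi, while DJKW.26661 in DjTcf4 RNAi fragments lay in the range of intact animals.

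The rise in control animals was at least 4-fold in 4 members, 2-fold to under 4-fold in 2 members and smaller in 26 members. Besides DJKW.10160, DJKW.4632 and DJKW.20572, the 4-fold class held a row at 92.6, 63.8 and 44.6 CPM in DjTcf4 RNAi fragments, against 79.2, 107, 91.7 and 71.9 CPM in control fragments. The fragment groups of that row overlapped widely, with the highest DjTcf4 RNAi library above 3 of the 4 control libraries. In intact animals it lay between 10.6 and 16.1 CPM with DjTcf4 RNAi and between 9.89 and 13.4 CPM in control. Its difference of the medians in fragments, -0.42 on the log2 scale, was close to the limit for membership.

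**Figure D2:**
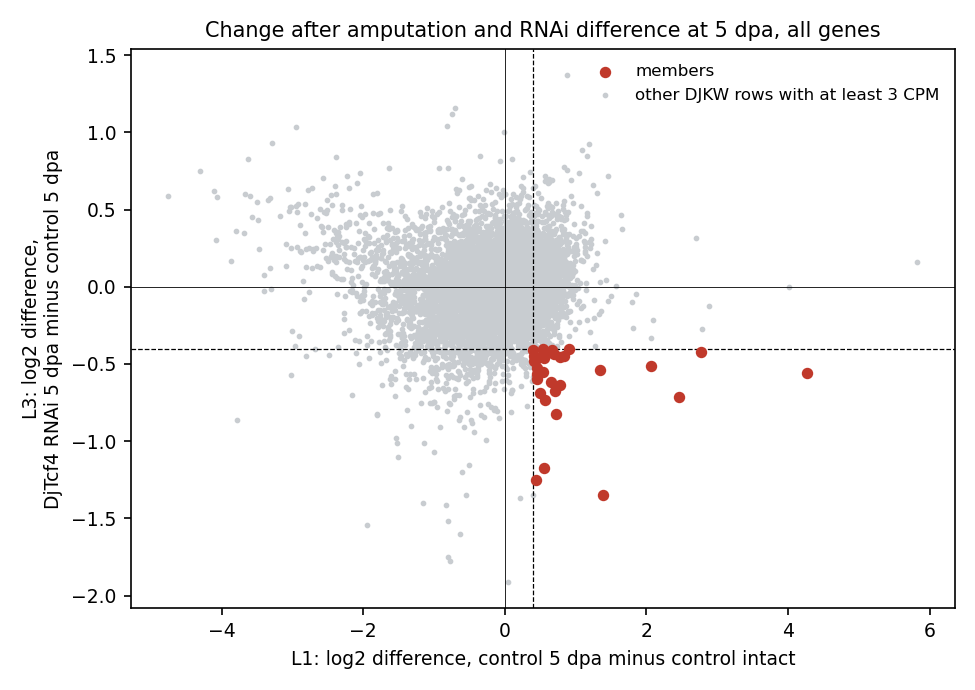
Log2 difference of group medians between control fragments and control intact animals (horizontal axis) and between DjTcf4 RNAi fragments and control fragments (vertical axis) for rows with at least 3 CPM in control fragments; red points are the members, dashed lines the limits of 0.4 and -0.4. Both axes contain the same 4 control fragment libraries. Most members sit near the limits, and 4 lie beyond a log2 rise of 2.

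The members fell into classes of counting depth, which CPM not corrected for gene length cannot turn into an order of transcript abundance. Control fragments held at least 100 CPM of 5 members, 10 to under 100 CPM of 6 and 3 to under 10 CPM of 21. In the 11 members with at least 10 CPM, single control fragment libraries held 99 to 158038 counts (median 862, a counting SD of 3.41%). In the other 21 they held 14 to 120 counts (median 55, a counting SD of 13.5%), beside a difference of 24.2% at the limit for membership. Counting SD is for 1 library and leaves out the spread between libraries, which can be much larger. DJKW.10160 had 13695 ± 1510 CPM (mean and SD) in control fragments, with at least 122490 counts in each library.

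The 11 members with at least 10 CPM had a median log2 rise of 0.78 in control (0.42 to 4.27). Their median log2 difference between DjTcf4 RNAi and control was -0.48 in fragments (-0.71 to -0.42) and -0.01 in intact animals (-0.35 to 0.25). There 5 of the 11 were above 0, against 54.6% of all rows with at least 3 CPM. Without DjTcf4 RNAi intact replicate 2 it was 3 of the 11, and the share of all rows was not counted. The intact median near 0 lay between members above 0 and members well below it, at -0.35, -0.33, -0.28, -0.25 and -0.22. With DjTcf4 RNAi, 9 of the 11 were higher in fragments than in intact animals, against 47.1% of all rows, with a median log2 difference of 0.59 over the 11. The median in DjTcf4 RNAi fragments was below that in control intact animals in 2 of the 11, DJKW.26661 being 1 of them.

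The 5 of these members with at least 100 CPM include DJKW.10160 and DJKW.4632. Another stood at 219, 268 and 234 CPM in DjTcf4 RNAi fragments, against 348, 253, 302 and 330 CPM in control fragments, and at 156, 154, 162 and 144 CPM in DjTcf4 RNAi intact animals, against 202, 183, 202 and 189 CPM in control intact animals. In this row the DjTcf4 RNAi libraries were also the lower ones in intact animals, without overlap, and the log2 difference was -0.33 there and -0.43 in fragments. With DjTcf4 RNAi its fragment median was 1.51 times the intact median, against 1.62 times in control. The fragment groups overlapped, since the DjTcf4 RNAi library at 268 CPM lay above the control library at 253 CPM. Its lower median in DjTcf4 RNAi fragments thus went with a lower level in DjTcf4 RNAi intact animals, within the bound of -0.4 that the choice allowed.

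A similar case was a row at 31.7, 32.8 and 43.4 CPM in DjTcf4 RNAi fragments, against 42.5, 47.7, 45.0 and 43.2 CPM in control fragments. It held 23.7, 22.9, 26.0 and 23.2 CPM in DjTcf4 RNAi intact animals, against 23.8, 31.4, 28.6 and 33.5 CPM in control intact animals. The log2 difference between DjTcf4 RNAi and control was -0.35 in intact animals and -0.42 in fragments, and the fragment median was 1.40 times the intact one with DjTcf4 RNAi and 1.47 times in control.

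The 21 members under 10 CPM had a median log2 rise of 0.55 in control (0.40 to 1.39). Their median log2 difference between DjTcf4 RNAi and control was -0.54 in fragments (-1.35 to -0.40) and 0.28 in intact animals, where 16 of the 21 were above 0. With DjTcf4 RNAi, 3 of the 21 had a higher median in fragments than in intact animals, and 8 did without DjTcf4 RNAi intact replicate 2. In 11 of the 21 the median in DjTcf4 RNAi fragments was below that in control intact animals. Over all rows with at least 3 CPM, 54.6% were above 0 in intact animals and 47.1% were higher in fragments with DjTcf4 RNAi. The choice itself favours both patterns. A low control intact median raises the rise and the intact difference together. Low DjTcf4 RNAi fragment values lower the difference in fragments and the change with DjTcf4 RNAi together.

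The 3 members at least 2-fold lower in DjTcf4 RNAi fragments were all in this class. The lowest difference, -1.35 on the log2 scale, came from a row at 5.55, 1.40 and 2.79 CPM in DjTcf4 RNAi fragments, against 7.48, 4.55, 8.29 and 8.57 CPM in control fragments. In intact animals this row ranged from 0 to 2.72 CPM with DjTcf4 RNAi and from 0.41 to 5.36 CPM in control. DjTcf4 RNAi fragment replicate 1 lay above control fragment replicate 2, so the fragment groups overlapped. Another row, at -1.25, had 10.1, 3.08 and 3.44 CPM in DjTcf4 RNAi fragments, against 8.43, 2.12, 9.62 and 9.30 CPM in control fragments. There the highest value of all 7 libraries came from DjTcf4 RNAi and the lowest from control, so that the difference of the medians goes against the extremes of the groups. The last of the 3, at -1.18, had 2.11, 2.30 and 3.90 CPM with DjTcf4 RNAi and 2.76, 7.87, 5.58 and 6.06 CPM in control fragments, where the lowest control library overlapped with the highest of DjTcf4 RNAi.

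Among rows under 10 CPM whose fragment groups did not overlap was one at 5.12, 6.42 and 5.96 CPM in DjTcf4 RNAi fragments, against 9.24, 8.11, 7.94 and 7.94 CPM in control fragments. Its intact levels were 5.91, 6.51, 6.20 and 5.30 CPM with DjTcf4 RNAi and 3.29, 3.37, 4.72 and 7.19 CPM in control. DjTcf4 RNAi libraries of intact animals and of fragments thus lay in 1 narrow range, and the log2 difference between DjTcf4 RNAi and control was -0.40 in fragments and 0.53 in intact animals.

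**Figure D3:**
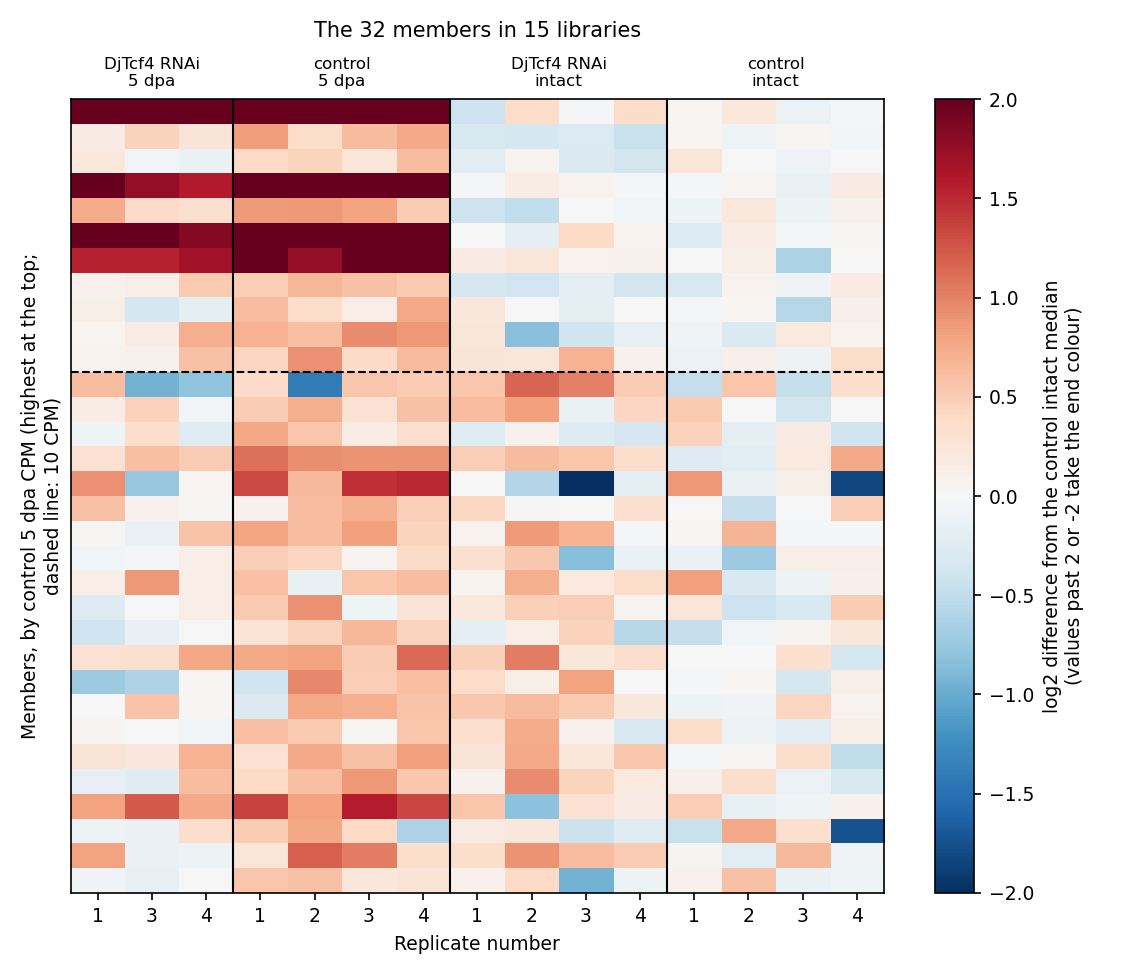
Log2 difference of each library from the control intact median (colour) for the 32 members (rows, with the highest CPM in control fragments at the top and a dashed line at 10 CPM) in the 15 libraries (columns, by replicate number). Rows above the line are mostly red in both fragment groups, and rows below it vary more between libraries of 1 group.

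Averaged over the 11 members with at least 10 CPM, log2(CPM + 0.5) was 6.30 ± 0.085 in DjTcf4 RNAi fragments (SD, n = 3) and 6.74 ± 0.037 in control fragments (SD, n = 4). In intact animals it was 5.24 ± 0.040 with DjTcf4 RNAi and 5.29 ± 0.101 in control (SD, n = 4 each). DjTcf4 RNAi intact replicate 2 stood at 5.20 on this scale, within the range of the other intact libraries (5.16 to 5.38) and below the lowest fragment library (6.23), unlike its place on the first principal component.

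Over the 21 members under 10 CPM the averages were 2.12 ± 0.053 in DjTcf4 RNAi fragments and 2.55 ± 0.033 in control fragments, and 2.21 ± 0.183 in DjTcf4 RNAi intact animals and 1.99 ± 0.090 in control intact animals. Here DjTcf4 RNAi intact replicate 2 had the highest intact value, 2.45, while the other 3 DjTcf4 RNAi intact libraries had 2.05 to 2.25. The separation of the fragment groups on both scales follows from the choice of the genes and is no separate evidence for it. A low average in control intact animals is favoured by the choice too.

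**Figure D4:**
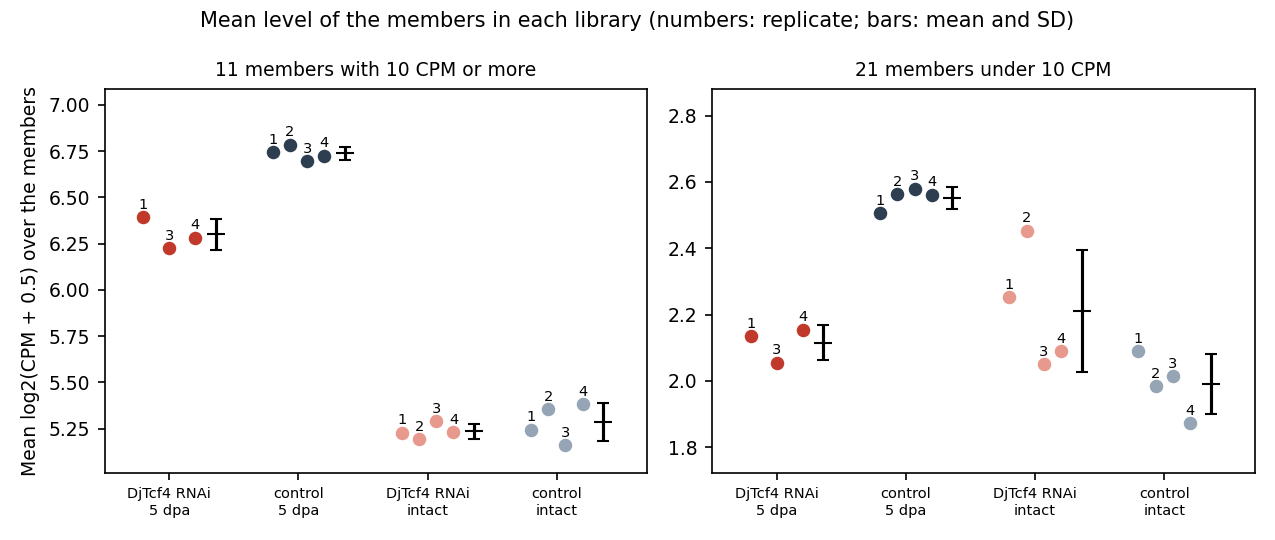
Mean log2(CPM + 0.5) over the 11 members with at least 10 CPM in control fragments and over the other 21 (vertical axes, not from 0) in each library; numbers are replicates and bars the mean and SD. In the left panel the DjTcf4 RNAi fragment libraries sit between 6.23 and 6.39, below control fragments and above all intact libraries. In the right panel they sit between 2.06 and 2.15, in the range of intact animals.

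All 3 DjTcf4 RNAi fragment libraries lay below all 4 control fragment libraries in 7 members, DJKW.10160, DJKW.20572 and DJKW.26661 among them, against 2.96% of all rows with at least 3 CPM in control fragments. All 4 control fragment libraries lay above all 4 control intact libraries in 15 members, against 19.9% of all rows. Both held for 5 members, against 0.416% of all rows. All 3 DjTcf4 RNAi fragment libraries lay above all 4 DjTcf4 RNAi intact libraries in 8 members, against 14.4% of all rows. These counts use the contrasts that chose the members, so nothing is read from them beyond how many members had groups that overlapped. Leaving out a library can only keep or raise such a count. Without DjTcf4 RNAi fragment replicate 4 the count of 7 was 16, without replicate 1 of that group 13, without replicate 3 11, and without control fragment replicate 3 or 4 11. The share of all rows without these libraries was not counted, so nothing is read from these numbers.

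The calls of models fitted to all 17094 genes passing a count filter, with p-values adjusted over all of them, were counted for the members as a description, since these contrasts used or bounded the groups that chose them. With edgeR's quasi-likelihood model, 0 members were called lower with DjTcf4 RNAi in fragments, against 0.041% of all genes. In simulated counts this model recovered 13.4% of genes made 1.5-fold lower in DjTcf4 RNAi fragments and 37.3% of those made 2-fold lower. The changed genes, 67 of each size, were drawn at random from all tested genes and not matched to the members for level. Recovery for genes like the members is thus not known. With recovery this low over random genes, a count of 0 is no sign that the members did not differ. At an unadjusted p under 0.05, 13 of the 32 members were lower, against 2.18% of all genes. DESeq2 and limma-voom each called 1 member lower, DJKW.4632 in both cases, against 0.211% of all genes in DESeq2 and 0.234% in limma-voom.

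The interaction asks whether the change after amputation differed between DjTcf4 RNAi and control. There 0 members were called by edgeR, against 0.00585% of all genes lower and 0.0% higher, and 0 by DESeq2 and limma-voom, against 0.0527% and 0.0293% of all genes in these tools. Recovery was not simulated for the interaction or for intact animals. In edgeR 14 members and 3.47% of all genes had an unadjusted p under 0.05. Those 14 numbered 7 without DjTcf4 RNAi intact replicate 2, and 8 without control fragment replicate 4. They numbered 9 without control fragment replicate 2 or DjTcf4 RNAi fragment replicate 1 or 3, and 10 to 15 without any other single library. The share of all genes at this p was not counted without these libraries. Whether the members alone changed is therefore not known.

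In intact animals 0 members were called with DjTcf4 RNAi by edgeR, against 0.0117% of all genes lower and 0.0% higher, and 0 by DESeq2 and limma-voom, against 0.211% and 0.246% of all genes. In edgeR 3 members and 7.01% of all genes had an unadjusted p under 0.05. Those 3 numbered 6 without DjTcf4 RNAi intact replicate 3 and 5 without control intact replicate 3 or DjTcf4 RNAi fragment replicate 1. Without any other single library they numbered 2 to 4. Here too the share of all genes was not counted without these libraries.

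After amputation, edgeR called 7 members higher in DjTcf4 RNAi animals, against 6.81% of all genes, and 15 members higher in control animals, against 14.0% of all genes. All 7 were among the 15. They were the 4 members with at least a 4-fold rise and 3 others with at least 10 CPM, while 4 of the 15 were under 10 CPM.

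These counts and shares depended on single libraries. Without DjTcf4 RNAi intact replicate 2, the library that stood among those at 5 dpa, 8 members were called higher in DjTcf4 RNAi animals, against 17.3% of all genes. That share was 3.21% and 3.44% without DjTcf4 RNAi fragment replicates 3 and 4, with 7 and 6 members, and 4.40% and 4.32% without DjTcf4 RNAi intact replicates 1 and 3, with 8 and 7 members. In control animals it was 6.78% and 9.21% without control fragment replicates 1 and 4, with 13 and 10 members. It was 8.34%, 9.25% and 8.0% without control intact replicates 2, 3 and 4, with 12, 12 and 14 members.

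Membership was narrow at its limits. Among rows that met the other conditions, the nearest 3 inside the limit on the DjTcf4 RNAi difference in fragments were at -0.4003, -0.4008 and -0.4121, and the nearest 3 outside at -0.3931, -0.3921 and -0.3853. For the rise in control the nearest inside were at 0.4018, 0.4086 and 0.4162 and the nearest outside at 0.3967, 0.3913 and 0.391. At the bound on intact animals the nearest member was at -0.37, and 1 row was kept out by it, at -0.74.

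Both differences that define the members contain the control fragment libraries, so that a high value there raises the first and lowers the second at once. The 4 control fragment libraries were therefore split, with 2 giving the rise and the other 2 the DjTcf4 RNAi difference. Over the 6 ways of doing so, 27 to 43 rows met the conditions, 16 to 19 of them members. All of these libraries had a part in choosing the members too, and the overlap, a description, is 50.0% to 59.4% of the 32 members and 44.2% to 59.3% of the rows chosen.

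The DjTcf4 RNAi difference was then measured in libraries that had no part in a choice. Rows were chosen with 2 control fragment libraries and 2 DjTcf4 RNAi fragment libraries, and measured in the 2 and the 1 left out, in 18 ways that reuse the same 7 libraries. Each way chose 43 to 245 rows. In the libraries left out, 4.17% to 25.0% of the chosen rows were again lower by at least 0.4 on the log2 scale (middle value 14.0%). Of all rows passing the same filter of 3 CPM, 3.71% to 13.6% were (middle value 8.04%). The share was above that of all rows in 15 of the 18 ways. The chosen rows were not matched to all rows for level or spread, and the share higher by 0.4 was not counted, so no support is drawn from this. With a filter of 10 CPM the middle values were 7.29% and 5.77%. The median difference of the chosen rows in the libraries left out lay between -0.09 and 0.22, and was below 0 in 5 of the 18 ways. It was lower than the median of all rows (-0.07 to 0.06) in the same number of ways, 5, and higher in the other 13. Most rows chosen in part of the libraries were therefore not lower by the same amount in the rest.

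**Figure D5:**
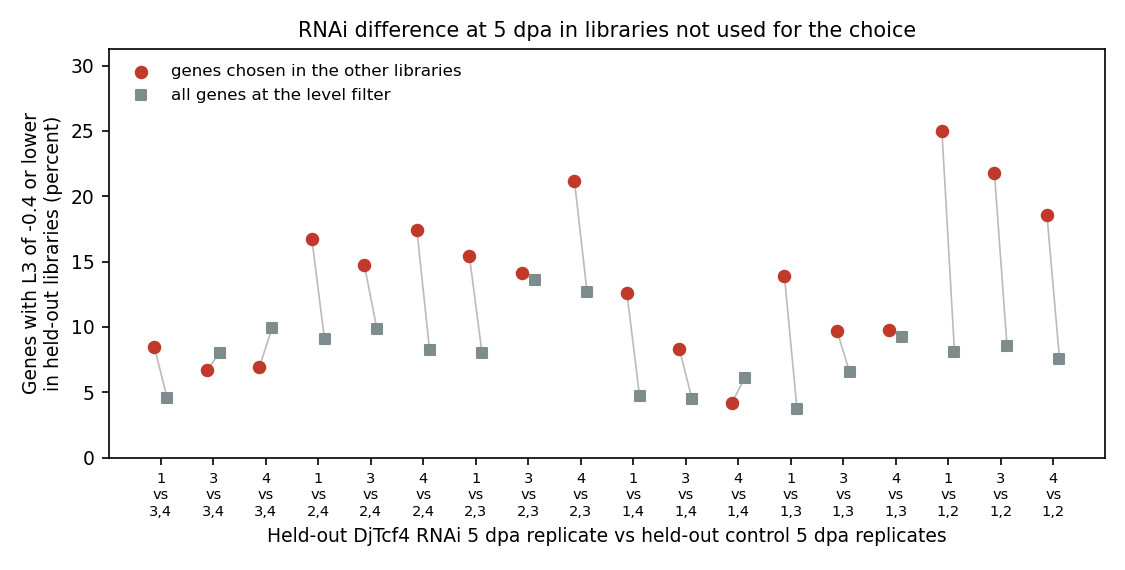
Percent of rows lower by at least 0.4 (log2) in 1 DjTcf4 RNAi fragment library against 2 control fragment libraries (vertical axis), for the 18 ways of leaving these out of the choice (horizontal axis). Red points are rows chosen by the same conditions in the remaining libraries, and grey squares are all rows with at least 3 CPM. The red points lie between 4.17% and 25.0%, above the grey square in 15 of the 18 ways. Chosen rows were not matched to all rows for level or spread.

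The members' own values in libraries left out are not given, since all 7 fragment libraries had a part in choosing the members.

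With the control fragments split in this manner, rows could also be grouped by the size of their rise with no library shared with the DjTcf4 RNAi difference. Rows with at least a 4-fold rise numbered 10 to 15, and their median log2 difference between DjTcf4 RNAi and control fragments was between -0.32 and -0.03, with 13.3% to 41.7% at -0.4 or lower. Rows with a rise from 2-fold to under 4-fold numbered 57 to 123, and their median lay between 0.17 and 0.34, with 1.63% to 8.77% at -0.4 or lower. Rows with a log2 rise from 0.4 to under 1 numbered 1731 to 2485, with a median between 0.07 and 0.12 and 0.966% to 2.08% at -0.4 or lower. Rows at 0.4 or higher were also present in each class. Among rows with at least a 4-fold rise they numbered 1 to 4, beside 2 to 5 at -0.4 or lower, and in 2 of the 6 splits they outnumbered these, with 1 row as high as 3.79. They numbered 15 to 50 beside 2 to 6 in the 2-fold class, and 95 to 157 beside 24 to 36 in the class below it. No test was made of the difference between classes, and the class with the strongest rise is small. Members numbered 4 among the 11 rows with at least a 4-fold rise when all libraries were used.

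Counts of 9 members had a fractional part in at least 1 library, against 15.6% of all rows with at least 3 CPM in control fragments, and 8 of the 9 in 10 libraries or more. Counts become fractional where reads are divided between similar sequences, and the levels of these members are then uncertain. For 4 of the 8, a single other row had fractional parts that completed those of the member to a whole number, within 0.01, in every library where the member was fractional, while the next best row did so in at most 5. Whether the pair shared reads was not tested, and the sum of both was taken beside the member alone.

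For DJKW.10160 this other row held 37.5 CPM (20.8 to 42.0 CPM) in DjTcf4 RNAi fragments, against 37.6 CPM (29.5 to 39.1 CPM) in control fragments, and 3.09 CPM in DjTcf4 RNAi intact animals, against 1.87 CPM in control intact animals (medians, with ranges). It too was higher after amputation, by 4.01 on the log2 scale in control, and its log2 difference between DjTcf4 RNAi and control fragments was 0.00. With both rows added, the differences of DJKW.10160 were 4.27 for the rise and -0.55 for DjTcf4 RNAi in fragments, close to those of the member alone. For DJKW.20572 the sum gave a rise of 2.02 and a DjTcf4 RNAi difference of -0.49.

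The remaining 2 pairs behaved differently from each other. A member at 208, 171 and 164 CPM in DjTcf4 RNAi fragments, against 236, 244, 211 and 275 CPM in control fragments, kept its place with the other row added (rise 0.44, DjTcf4 RNAi difference -0.44). That other row stood at 45.2 CPM in DjTcf4 RNAi fragments, against 55.1 CPM in control fragments (medians, log2 difference -0.28). The row under 10 CPM described above, with DjTcf4 RNAi libraries in 1 narrow range, did not keep its place: its sum had a rise of 0.73 and a DjTcf4 RNAi difference of -0.35, short of the limit. For the other 4 members with fractional counts, 2 of the 3 strongest differences under 10 CPM among them, no single row completed the counts in more than 4 libraries.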

How the data were processed

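The authors deposited 1 table of expected counts, with a column for each library, and 8.23% of its values are fractional. Bowtie2, HISAT2, RSEM and DESeq2 appear in the submitters' processing notes without role or version. Build and annotation: not given in the sources used here. Libraries were grouped by their labels. CPM here is the count divided by the column sum, times 1000000. Members and lists were chosen with earlier results of these data known.

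Counts were rounded and tested with edgeR 4.0.16 in R 4.3.3: filterByExpr by group (minimum count 10, minimum total 15), TMM scaling, 1 robust quasi-likelihood model over 15 libraries with 1 coefficient per group, and Benjamini-Hochberg adjusted p under 0.05 over all genes. All 32 members passed the filter. P-values set a group difference against the spread between libraries, which may be technical and not between groups of animals. DESeq2 1.42.0 and limma 3.58.1 (voom with quality weights), other scalings, filters and thresholds, and leaving out each library were alternatives. The edgeR fit was tested on simulated counts for DjTcf4 RNAi in fragments, with the changed genes drawn at random from all tested genes. It recovered 13.4%, 37.3% and 66.7% of genes made 1.5-fold, 2-fold and 4-fold lower, and 2.5% of its calls were false. The named-gene rule asked for at least 10 CPM in control fragments, non-overlapping groups in both contrasts and at most 1% of values fractional. It was written for up to 4 IDs, and 1 member met it. No sequence was used here.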

Additional observations from a re-analysis of the deposited data

How the results depend on the processing

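The number of members, 32, depended on the limits: an offset of 2 CPM gave 16, no level filter 205, a level filter of 10 CPM 11, and log2 limits of 0.3, 0.6 and 1 gave 97, 6 and 1. TMM and DESeq2 size factors gave 44 and 47, holding 30 and 32 of the members, and means in place of medians 22, holding 12. Leaving out a library gave 25 to 70, holding 16 to 32 of the members. The number was 56, 59 and 70 without control fragment replicates 1, 3 and 4, and the cause was not tested. Only 16, 17 and 21 of the members were kept without DjTcf4 RNAi fragment replicates 1, 3 and 4, and 19 without control fragment replicate 2. Without any other single library 25 to 32 were kept. The share again lower in libraries left out of the choice (14.0%) had a middle value of 7.29% with a level filter of 10 CPM, against 5.77% of all rows.

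Members called lower with DjTcf4 RNAi in fragments numbered 0 in edgeR and in 20 of its alternatives, and 1 each with DESeq2 and limma-voom, against 0.211% and 0.234% of all genes in these tools. Without 1 library edgeR's share of all genes was 0.023% to 0.0529%, and 0.148% without DjTcf4 RNAi intact replicate 2. Members with DjTcf4 RNAi fragments below all control fragments (7) numbered 8 to 16 without 1 library, a count that can only stay or rise with fewer libraries. Rows with a 4-fold rise that met the conditions (4) numbered 2 with control fragment replicates 1 and 2 giving the rise, and 3 to 5 otherwise. Adding the rows that complete fractional counts, chosen after the data were seen, as were the values by size of rise, left 31 members.

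Deviations from the group mean correlated weakly between same-numbered DjTcf4 RNAi and control libraries, within intact animals and within fragments (-0.206 to 0.0853). Same-numbered intact and fragment libraries were not compared, and whether replicates were paired by design is not known. With the replicate block, members called numbered 0 for DjTcf4 RNAi in fragments, in intact animals and in the interaction, where 4, 1 and 0 of all genes were called. For amputation they numbered 7 with DjTcf4 RNAi (7.1% of all genes) and 14 in control (13.2%), and 7 and 15 without the block. Members under 10 CPM, with a median of 55 counts, limit what the table can show.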

Other observations

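Rows with IDs beginning with Maker were outside the choice. Of 114 such rows with at least 3 CPM in control fragments, 2 met the same conditions.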
